A study of Homo sapiens with 4 samples.

Results

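The SF3A and SF3B splicing factors are 2 multi-subunit parts of the U2 small nuclear ribonucleoprotein (U2 snRNP), and their 10 subunit genes are described here: SF3B1, SF3B2, SF3B3, SF3B4, SF3B5, SF3B6 and PHF5A for SF3B, and SF3A1, SF3A2 and SF3A3 for SF3A. All probes whose gene symbol in the array platform's annotation was one of these names were taken, 14 of the 47228 probes on each array. A probe counted as detected on an array when its detection p-value was under 0.01, and as measured when it was detected on at least 1 array. By that rule 12 of the 14 probes and 9 of the 10 subunit genes were measured, among 18200 probes and 10921 genes in all. The cells were A549, an established line from a human lung adenocarcinoma, transfected with 50 nM siRNA. The medium was replaced after 4 h, and 48 h after transfection is the time the labels give for the knockdown check, with no separate time for the array RNA. Each of 3 siEPEL samples received a different siRNA (siRNA 1, siRNA 2 and siRNA 3) directed at EPEL, a long noncoding RNA named for its link to E2F transcription factors and proliferation, and a single control sample received a non-targeting siRNA. Each sample was read on 1 HumanHT-12 bead array, so the control has no replicate, and the labels do not state that the transfections were done in separate cultures. Of the probes, 0 carried the name of EPEL or its RefSeq entry, so the depth of each knockdown is not known from the arrays.

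As background, the U2 snRNP recognises the branch site of an intron, the adenosine that makes the first chemical step of splicing. SF3B clamps around the pairing of U2 RNA with the branch site, while SF3A joins SF3B to the rest of the particle. SF3B1, the largest SF3B subunit, is a helical repeat scaffold that is recurrently mutated in myelodysplastic syndromes and other tumours. SF3B3 is a three-propeller protein on which SF3B1 is mounted, and with SF3B5 it is also a component of the SAGA transcriptional coactivator. Small molecules that block splicing, such as pladienolide B, bind where SF3B1 meets PHF5A.

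Depth was alike on the 4 arrays. Between 16724 and 17106 probes were detected on the siEPEL arrays and 16520 on the control array, and the median raw bead signal was 65.9 to 67.1 on the siEPEL arrays and 68.3 on the control array. All 6 epithelial keratin and adhesion markers examined were detected on all 4 arrays, with a summed raw signal of 11630 to 15878 on the siEPEL arrays and 16303 on the control array. Of 8 markers of blood, endothelial, muscle and stromal cells, PTPRC, CD3E, PECAM1, VWF, DES and HBB were detected on no array. The remaining 2, CD68 and COL3A1, were detected on all 4 arrays, and the 8 summed to between 1044 and 1098 on the siEPEL arrays and to 926 on the control array. The part of these marker differences in the subunit ratios was not tested. In RNA from a whole culture, fewer cells that express a gene and less RNA per cell cannot be told apart. With limma, 0 of 18200 probes were lower and 0 higher at an adjusted p under 0.05 (0% in each direction), so no subunit passed. Without adjustment, 382 of the 18200 probes had a limma p under 0.05 (171 lower, 211 higher). That is a smaller share than the 0.05 that the threshold would pass if no probe differed. The members were chosen by the siEPEL ratios of SF3B3 in this same comparison, with its partners added by name, so the ratios of the subunits are given as a description with no p-value.

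SF3B3 stood below the control with every siRNA, by an amount that no other measured subunit came near. Its raw bead signal was 725, 661 and 705 with siRNAs 1, 2 and 3, against 1122 on the control array. The 3 siEPEL values lay close together and did not overlap the control value. After background correction and quantile normalization the log2 level was 9.45, 9.30 and 9.35 with siRNAs 1, 2 and 3 and 10.05 on the control array. The ratios to the control array were 0.661, 0.596 and 0.617, a mean log2 ratio of -0.68 ± 0.08 (SD of 3 siRNAs) with a limma standard error of 0.20. Put as a mean, the SF3B3 signal was at 62.4% of the control level. The siEPEL arrays differed among themselves by at most 0.15 on the log2 scale, while the nearest of them lay 0.60 from the control. For comparison, the median spread among the siEPEL arrays was 0.30 over the 9775 genes detected on all 4 arrays. SF3B3 has only 1 probe, so no second probe bears on its ratio. All 3 ratios share the single control reading of that probe, and SF3B3 was chosen on these ratios. The gap therefore restates the choice and is no test of it. An SD over the 3 siRNAs, here and below, leaves out the error of the control array.

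**Figure D1:**
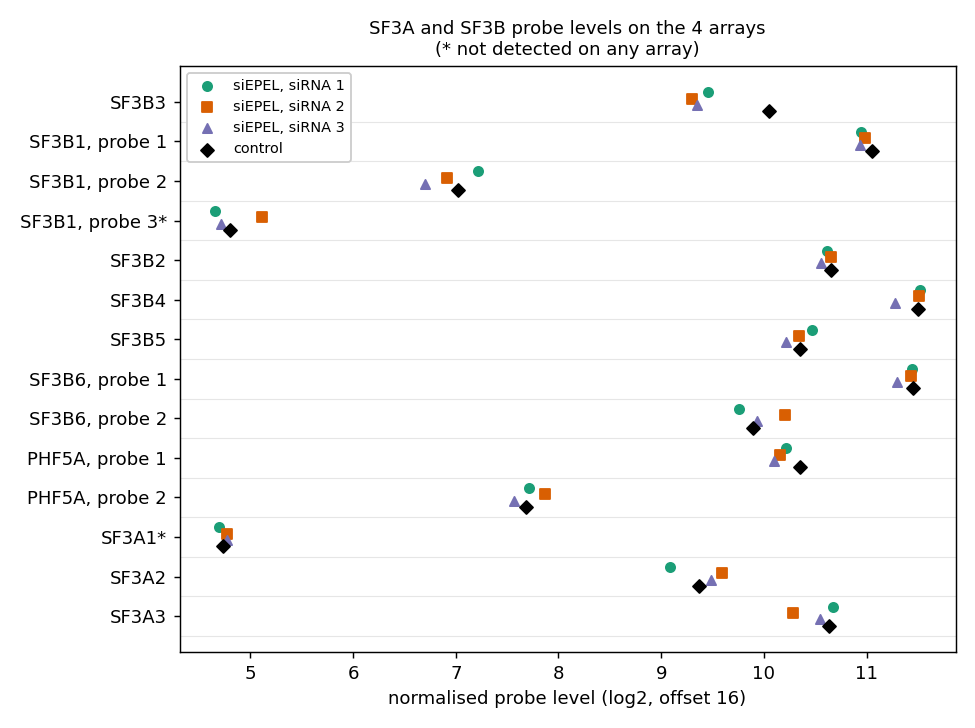
Normalised log2 level (x axis) of each of the 14 SF3A and SF3B probes (rows) on each array, with 1 marker per array. SF3B3 is the row in which the 3 siEPEL markers, between 9.30 and 9.45, stand furthest from the control marker, at 10.05. The brightest probes of SF3B1, SF3B6 and PHF5A also have all 3 siEPEL markers below the control marker, by smaller gaps. Levels of different probes are not on a common scale, and an asterisk marks the 2 probes detected on no array.

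Within the list of all genes, SF3B3 ranked 20th from the lowest of 10921 by its mean ratio, ahead of PHF5A at rank 1718, the next subunit. Of the other genes, 3.05% were as low or lower with siRNA 1, 1.38% with siRNA 2 and 0.604% with siRNA 3. SF3B3 was the only subunit at least 1.5-fold below the control with all 3 siRNAs, a bound that 0.0916% of all genes met (10 of 10921). None of the 9 measured subunits was that far above the control with all 3, as 0.11% of genes were. Only 8 other genes had all 3 ratios at or below the SF3B3 ratio nearest the control, and 1 of these was detected on all 4 arrays. These ranks restate the values on which SF3B3 was chosen.

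The partners of SF3B3 did not share its distance from the control. The median log2 ratio of the 8 measured partners was -0.02, -0.01 and -0.12 with siRNAs 1, 2 and 3, against 0.00 for all measured genes with each siRNA. SF3B3 lay below that partner median by a log2 difference of -0.58, -0.73 and -0.57, a mean of -0.63 ± 0.09 (SD, 3 siRNAs). No partner was as low as SF3B3 with any siRNA. The lowest partner was SF3A2 at -0.28 with siRNA 1, SF3A3 at -0.35 with siRNA 2 and PHF5A at -0.25 with siRNA 3. With SF3B3 counted, 4 of the 9 measured subunits (SF3B1, SF3B3, SF3B6 and PHF5A) had all 3 siEPEL arrays below the control, as did 20.3% of all genes. No subunit had all 3 above it, the pattern of 20.5% of all genes. The other 3 of those 4 subunits were separated from the control by a gap of at most 0.14 on the log2 scale. That gap was 0.14 for PHF5A, 0.07 for SF3B1 and 0.004 for SF3B6, which was nearly tied with the control. The count of 4 was 2 when all probes of a gene were averaged, 5 with cyclic loess and 6 with median scaling.

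**Figure D2:**
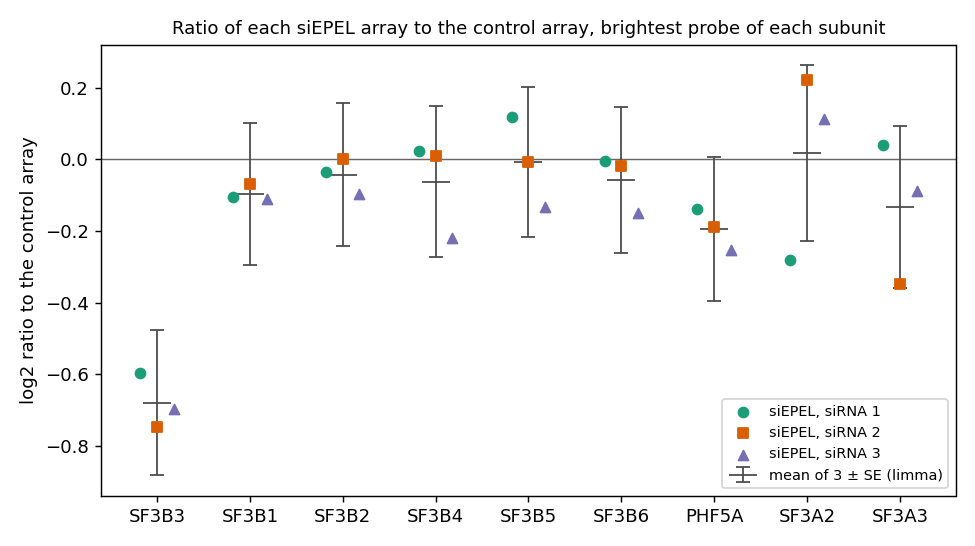
Log2 ratio of each siEPEL array to the control array (y axis) for the brightest measured probe of each subunit, with the mean of the 3 ratios and its limma standard error as a bar. SF3B3 lies between -0.75 and -0.60, whereas the ratios of its partners run from -0.35 to 0.22.

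Among the SF3B partners, the scaffold SF3B1 was nearly level. Its brightest probe read 2036, 1974 and 2008 with siRNAs 1, 2 and 3, against 2222 on the control array. The log2 ratios were -0.11, -0.07 and -0.11, a mean of -0.10 ± 0.02 (SD, 3 siRNAs) with a limma standard error of 0.20. All 3 siEPEL values lay under the control value, by less than the standard error. A dimmer probe of the same transcript gave 184, 161 and 146, against 171 on the control array, so that its siEPEL values lay on both sides of the control. The third SF3B1 probe, annotated to a shorter transcript variant, was detected on no array.

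SF3B2, which pairs with SF3B4 and contacts intron RNA beside the branch site, showed the smallest siEPEL spread after SF3B1. Its raw signal was 1608, 1598 and 1558 with siRNAs 1, 2 and 3, against 1677 on the control array. Normalised, the log2 ratios were -0.04, 0.00 and -0.10, and the normalised control level lay inside the range of the siEPEL arrays.

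SF3B4, an RNA recognition motif protein whose loss of function causes Nager syndrome, read 3012, 2846 and 2504, against 3044 on the control array. Its log2 ratios were 0.02, 0.01 and -0.22, so that siRNA 3 alone set its mean of -0.06 ± 0.14 (SD, 3 siRNAs). Without siRNA 3 the mean log2 ratio was 0.02.

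By brightest probes, the small subunits SF3B5, SF3B6 and PHF5A gave the mildest and the widest of the partner differences within SF3B. SF3B5, which packs against SF3B3 and accompanies it in SAGA, read 1446, 1299 and 1238, against 1376 on the control array, with the control inside the siEPEL range and a mean log2 ratio of -0.01 ± 0.13 (SD, 3 siRNAs). SF3B6, also called p14, sits on SF3B1 near the branch site. Its brighter probe read 2833, 2707 and 2541, against 2931 on the control array, a mean log2 ratio of -0.06 ± 0.08. The dimmer SF3B6 probe read 896, 1202 and 1033, against 1012 on the control array, with a mean log2 ratio of 0.08 ± 0.23. Of the SF3B6 probes, then, the brighter lay below the control with all 3 siRNAs and the dimmer on both sides.

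PHF5A, a zinc-knuckle protein that forms part of the pocket for the branch-site adenosine, was the partner furthest from the control by brightest probes. With the probes of each gene averaged it was not (-0.08, against -0.09 for SF3B1 and -0.13 for SF3A3). Its brighter probe read 1211, 1160 and 1143, against 1378 on the control array. The log2 ratios were -0.14, -0.19 and -0.25, a mean of -0.19 ± 0.06 (SD, 3 siRNAs) with a limma standard error of 0.20. The siEPEL values did not overlap the control by this probe. They did overlap it by the dimmer PHF5A probe, at 245, 274 and 235, against 247 on the control array, and the mean log2 ratio of that probe was 0.04 ± 0.15.

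Of the SF3A genes, SF3A2 and SF3A3 varied more between siRNAs than from the control. SF3A2, a zinc-finger subunit, read 573, 797 and 763 with siRNAs 1, 2 and 3, against 719 on the control array. Its log2 ratios were -0.28, 0.22 and 0.11, with siRNA 1 low and the other two high. SF3A3, which links SF3A to the U2 particle, read 1665, 1258 and 1548, against 1658 on the control array. There siRNA 2 was the low array, with log2 ratios of 0.04, -0.35 and -0.09. The siEPEL range was 0.50 for SF3A2 and 0.39 for SF3A3 on the log2 scale, against a median of 0.15 over the 9 measured subunits. SF3A1, which holds SF3A2 and SF3A3 together, could not be compared. Its single probe read 62.1, 63.5 and 63.4, against 64.5 on the control array, near the median signal of each array and not detected on any.

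Set against each other and not against the control, the siEPEL arrays had the same lowest array for most SF3B subunits, though not the same full order. By brightest probes, the array of siRNA 3 was the lowest of the 3 for 6 of the 7 SF3B subunits. The exception was SF3B3, whose lowest array was that of siRNA 2. The dimmer SF3B6 probe was lowest with siRNA 1, and the dimmer measured probes of SF3B1 and PHF5A with siRNA 3. Over all measured genes siRNA 3 was lowest for 31.4%. For SF3B1 the lowest place was a near tie, at a log2 level of 10.946 with siRNA 1 and 10.941 with siRNA 3. The raw SF3B1 signal was lowest with siRNA 2, at 1974 against 2008 with siRNA 3. The differences were small, 0.04 on the log2 scale between the highest and lowest siEPEL array for SF3B1 and 0.25 for SF3B5, and the count was 5 of 7 with median scaling or with the probes of a gene averaged. For the 2 measured SF3A subunits the count was 0. This pattern was noticed after the values were seen, and with 1 array per siRNA it has no replicate.

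By their mean ratios, the other measured genes of the splicing machinery stood nearer the control than SF3B3, and none of them was as low. In 7 lists of spliceosome genes drawn from textbook knowledge, 90 genes were measured and 0 had a mean ratio at or below that of SF3B3. All 3 ratios were below 0 in 25.6% of these genes and above 0 in 10%, beside 20.3% and 20.5% of all genes. Members past the limma threshold numbered 0 in each list, as they did among all 18200 probes, so that count does not set the lists apart. The 3 medians of each list share the control array, so the SD given with a list leaves out the error of that array. The U2 snRNP core (Sm proteins, SNRPA1 and SNRPB2, 8 of 9 measured) had a mean list median of -0.08 ± 0.01 (SD, 3 siRNAs), with 2 genes below the control throughout and 0 above. It ran from SNRPB2, a protein of the U2 particle, at a mean log2 ratio of -0.17 to the Sm protein SNRPD3 at 0.10. Genes that recognise the branch site and the 3′ splice site or otherwise act with U2 (12 of 14 measured) had a mean list median of -0.04 ± 0.03. Their lowest was DDX46, the helicase that remodels U2 around SF3B1, with log2 ratios of -0.18, -0.56 and -0.28, and their highest was CHERP at a mean of 0.28.

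The remaining splicing lists had mean list medians between -0.11 and 0.03. The 22 measured genes of the U4/U6.U5 tri-snRNP had a mean list median of -0.04 ± 0.06 (SD, 3 siRNAs). They ran from LSM4, of the ring on U6 RNA, at a mean log2 ratio of -0.29 to SNU13 at 0.12. LSM4 was at -0.76, -0.01 and -0.09 with siRNAs 1, 2 and 3, so with siRNA 1 it lay below SF3B3 (-0.60). For the 22 measured genes of the Prp19 complex and the catalytic steps the mean list median was 0.03 ± 0.06, from CWC15 at -0.24 to BCAS2, a Prp19 complex core protein, at 0.33. The 6 measured U1 snRNP genes stood at -0.02 ± 0.03, with LUC7L3 lowest at -0.18 and SNRPC highest at 0.17. The 8 genes of the U11/U12 minor spliceosome, a particle that also carries SF3B, stood at 0.01 ± 0.07, with ZRSR2 lowest at -0.14 and SNRNP35 highest at 0.26. The 12 SR proteins, which mark exons for splicing, stood at -0.11 ± 0.07. Below the control throughout were 6 of them (50%) and above it 0, beside 20.3% and 20.5% of all genes. Among the SR proteins, TRA2B was lowest at a mean of -0.22 and SRSF10 highest at 0.02.

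SAGA, the other complex that holds SF3B3 and SF3B5, was level with the control. The 17 measured genes of 20 listed had a mean list median of -0.01 ± 0.04 (SD, 3 siRNAs). Below the control throughout was 1 gene and above it 1 (5.88% each, beside 20.3% and 20.5% of all genes). Within the SAGA list the acetyltransferase KAT2A was the lowest at a mean log2 ratio of -0.13 and the related KAT2B the highest at 0.29.

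**Figure D3:**
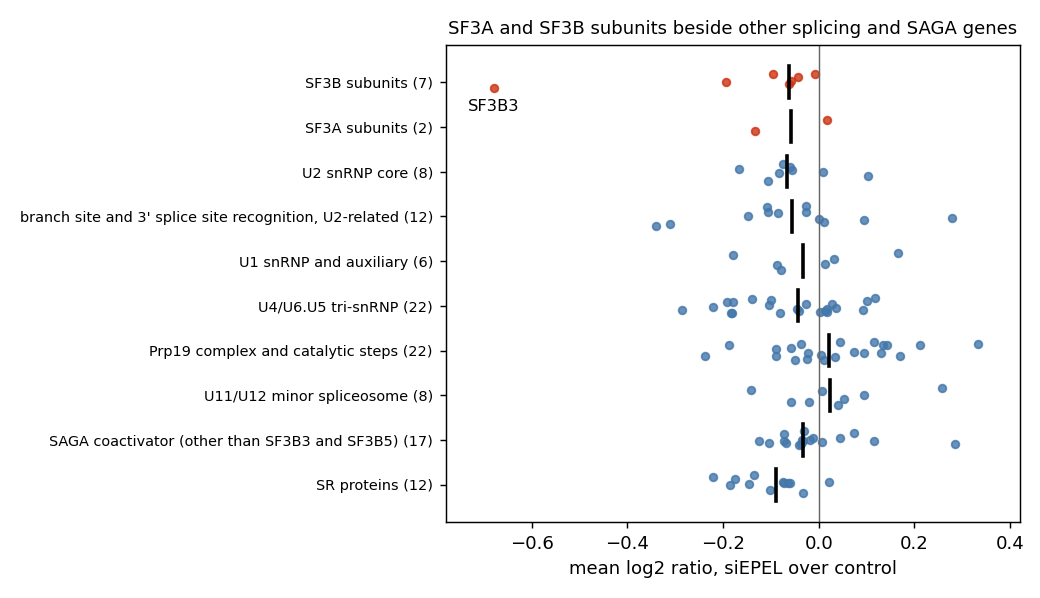
Mean log2 ratio of siEPEL over control (x axis) for each measured gene of the SF3B and SF3A lists (red) and of the other spliceosome and SAGA lists (blue), with the number of genes in parentheses and a black bar at the median of each row. SF3B3, at -0.68, lies outside the range of the other rows, whose lowest gene is DDX46 at -0.34.

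By the root mean square difference of the 3 log2 ratios, over the 9774 other genes detected on all 4 arrays, the genes nearest to SF3B3 were HDAC9 (0.13), PHLDA2 (0.14), TRIM9 (0.14), IGFLR1 (0.14) and PLEKHA1 (0.15). HDAC9 had log2 ratios of -0.63, -0.53 and -0.68 and PLEKHA1 of -0.56, -0.91 and -0.51 with siRNAs 1, 2 and 3. HDAC9 and PHLDA2 were dim, with raw signals of 94.7 to 101.3 and 104 to 112 on the siEPEL arrays, against 130 and 144 on the control array, so their ratios rest on the background correction more than that of SF3B3. No SF3A or SF3B partner was among the 5, and all 3 values of each gene share the same control array.

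Most of the subunit promoters at hand share letters of a motif that the choice of members did not use. RefSeq windows of GRCh38.p14, from 250 bases before to 50 bases after the annotated start, were at hand for 8 of the 10 genes, all but SF3B3 and PHF5A. The letters CCGGAAG, the core of the ETS family motif, stood on either strand in 6 of the 8, against 22.6% of the 8884 measured genes with a window and 12.2% of all 27305 genes. The YY1 motif AAGATGGC stood in 3 of the 8 (SF3B2, SF3B4 and SF3A1), against 6.65% of measured genes. An E2F motif, spelled TTTCCCGC, TTTCGCGC, TTTGCCGC or TTTGGCGC, stood in 1 of the 8, SF3B1, against 6.82% of measured genes, and was looked for because EPEL is linked to E2F. Of 5 further motifs searched on both strands, CCAAT matched SF3B5 alone, against 43.7% of measured genes. GCGCATGC (NRF1) matched SF3A2 alone, against 6.6%, and CACGTG (E-box) SF3B1 alone, against 12.8%. TATAAA and TGACGTCA (CRE) matched 0 of 8, against 8.51% and 3.89% of measured genes. The 6 stretches around the first match to the ETS letters (61 bases each) are shown to let the shared letters be read in their context, and the SF3B1 stretch of 120 bases because it alone holds the E2F letters. Each is given 5′ to 3′ on the strand of the gene, and capitals mark the motif letters, which run as CTTCCGG where the match is on the opposite strand.
SF3B2, chr11:66052284-66052344, plus strand: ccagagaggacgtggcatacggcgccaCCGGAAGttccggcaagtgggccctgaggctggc
SF3B4, chr1:149927796-149927856, minus strand: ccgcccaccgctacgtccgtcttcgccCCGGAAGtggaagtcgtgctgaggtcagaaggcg
SF3B6, chr2:24076452-24076512, minus strand: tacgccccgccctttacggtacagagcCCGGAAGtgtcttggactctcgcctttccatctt
SF3A1, chr22:30356910-30356970, minus strand: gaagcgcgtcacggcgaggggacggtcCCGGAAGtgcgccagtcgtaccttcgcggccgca
SF3A2, chr19:2236788-2236848, plus strand: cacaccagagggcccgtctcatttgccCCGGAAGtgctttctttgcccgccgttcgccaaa
SF3A3, chr1:37990057-37990117, minus strand: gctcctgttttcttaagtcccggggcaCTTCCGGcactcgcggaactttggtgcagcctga
SF3B1, chr2:197435044-197435163, minus strand: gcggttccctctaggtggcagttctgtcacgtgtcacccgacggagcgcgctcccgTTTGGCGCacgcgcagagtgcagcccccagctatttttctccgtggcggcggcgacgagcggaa
A match is a description of these letters and not a binding site. SF3B1, the subunit with the E2F letters, had the mean log2 ratio of -0.10 given above, and the 5 measured genes with the ETS letters ran from -0.13 (SF3A3, or -0.02 without siRNA 2) to 0.02 (SF3A2).

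The distance of SF3B3 from its partners held under each alternative processing tried. Every alternative kept the single control array and the single SF3B3 probe, so none could examine those limits. Its mean log2 ratio ran from -0.71 with median scaling to -0.65 without background correction, and from -0.72 to -0.65 when 1 siEPEL array was left out. SF3A2 changed sign with median scaling (-0.02) and with cyclic loess (-0.01), so no side of the control is stated for it.

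**Figure D4:**
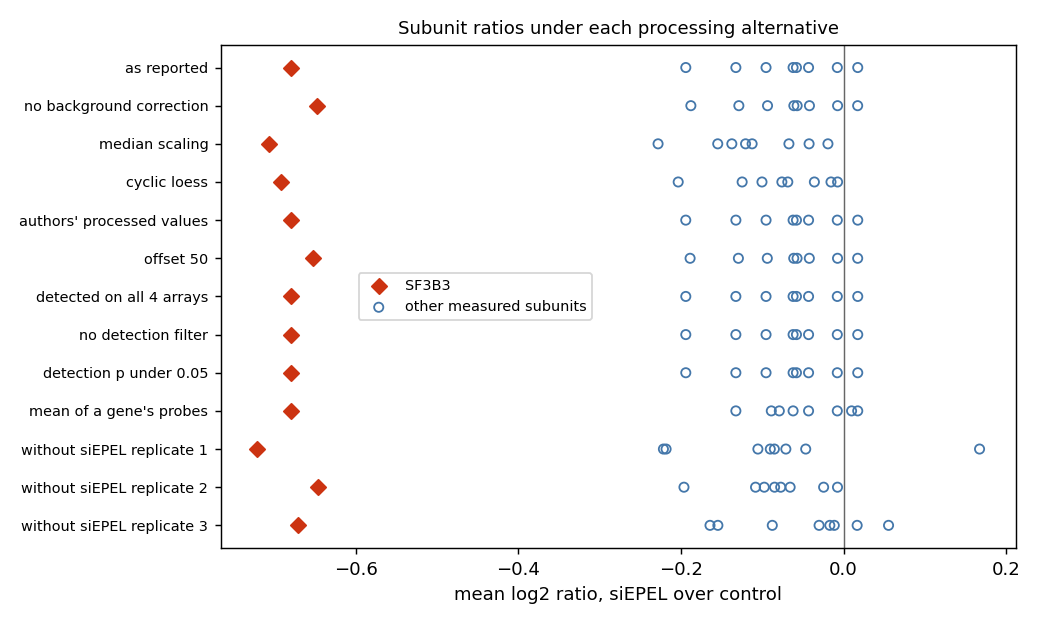
Mean log2 ratio of siEPEL over control (x axis) of SF3B3 (filled) and of the other 8 measured subunits (open) under each alternative (rows). SF3B3 stays between -0.72 and -0.65 in every row, and the other subunits stay between -0.23 and 0.17.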

How the data were processed

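The deposited signal intensities are linear bead averages, neither background-subtracted nor normalized, that came from BeadStudio according to the submitters' processing notes. Per the file headers, a detection p-value accompanies each deposited intensity. By its values, the authors' processed table holds background-subtracted intensities with nearly equal distributions on the 4 arrays, and it was used as an alternative. The method behind it was not stated by any label or header used here. Starting from the raw intensities, limma 3.58.1 (R 4.3.3) was used with neqc, which estimates the background by normexp through the detection calls, adds 16, equalises the array quantiles and takes log2. The offset makes differences of dim probes look smaller. The comparison of siEPEL with control used lmFit and eBayes over 18200 probes, 2-sided, with Benjamini-Hochberg adjustment at 0.05. The lone control is assumed to vary like the siEPEL arrays, which leave 2 residual degrees of freedom. Precision is limited by the number of arrays. The fit was tested on simulated data.

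Platform annotation named the genes, and a RefSeq table (GRCh38.p14) changed 0 symbols. The brightest measured probe stood for its gene. The files name no genome build, so coordinates are given only for RefSeq promoter windows. The members and gene lists were chosen with earlier results of these data known. A few listed genes were not analysed here. Named genes were all members, the lowest and highest gene of each list among those detected on all 4 arrays, and the 5 genes nearest to SF3B3, while the other markers were named to check the cell type. Figures were drawn with matplotlib 3.10.9. Alternatives tried were raw signal without background correction, cyclic loess, median scaling, the processed table, an offset of 50, other detection filters, averaged probes, an intensity trend, and leaving out each siEPEL array.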

Additional observations from a re-analysis of the deposited data

How the results depend on the processing

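The count of probes past the threshold was 0 under every alternative run. The median log2 ratio of the measured subunits kept its sign throughout, from -0.10 to -0.06 over the processing alternatives and from -0.08 to -0.03 without 1 siEPEL array. The difference of SF3B3 from the partner median ran from -0.64 to -0.60 over the processing alternatives and from -0.65 to -0.58 without 1 siEPEL array. The number of subunits below the control with all siRNAs kept was 4 of 9 as reported, 2 with the mean of a gene's probes, 5 with cyclic loess, 6 with median scaling, and 4 to 6 over the fits without 1 siEPEL array. Of single subunits, SF3B1 moved to -0.14 with median scaling and PHF5A to -0.08 with its probes averaged. SF3A3 stood at -0.02 without siRNA 2 and -0.22 without siRNA 1 (-0.13 as reported) and SF3B2 at -0.02 without siRNA 3 (-0.04 as reported). Small mean ratios changed sign: SF3B4 (0.02) and SF3B5 (0.06) without siRNA 3, SF3B6 (0.01) with its probes averaged, and SF3A2 without siRNA 2 (-0.08), without siRNA 3 (-0.03), with median scaling (-0.02) and with cyclic loess (-0.01). The causes were not tested. The count of SF3B subunits lowest with siRNA 3, chosen after seeing the data, was 5 to 6 of 7. Signal over background limits SF3A1 and the third SF3B1 probe. No paired analysis was possible because there is 1 control array for 3 siEPEL arrays.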
